A study of Mus musculus with 6 samples.

Results

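Gstm1, Aox1 and Abcc4 are detoxification and export genes described as targets of the transcription factor Nrf2, and each was read in the hippocampus by 1 array probe listed as an mRNA. The probes were ASMM10P007034 (Gstm1), ASMM10P015603 (Aox1) and ASMM10P011456 (Abcc4), 3 of the 60915 probes measured. They were chosen from the genes that the study listed as changed between the genotypes, so their genotype difference fixed their choice and is described here with no test. Both genotypes were male ICR mice aged 3 to 4 months, 3 wild-type Nrf2 (+/+) mice and 3 Nrf2 (−/−) mice with an Nrf2 gene knockout, with no treatment named and 1 Arraystar Mouse LncRNA array per mouse. Both mRNAs and lncRNAs are probed on this array, to which rRNA-depleted RNA was hybridized as cRNA carrying a single dye. The knockout was named for the whole animal and for no cell type, and whether the mice were littermates was not given in the sources used here.

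Nrf2 is held in the cytoplasm by Keap1, which leads it to degradation. Under oxidative or electrophilic stress it reaches the nucleus, pairs with a small Maf protein and binds antioxidant response elements (AREs) near genes of glutathione use, drug metabolism and export. Gstm1 encodes a mu-class glutathione transferase, which joins glutathione to reactive compounds. Aox1 encodes an aldehyde oxidase, a molybdenum enzyme that oxidizes aldehydes and nitrogen heterocycles. Abcc4 encodes MRP4, a membrane pump that exports organic anions, cyclic nucleotides and conjugated compounds.

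Promoter sequences were read from RefSeq (GRCm38.p6), in which all 3 genes matched by symbol. They are shown because the 3 genes are described as targets of a factor that binds short DNA elements. Windows of 300 bases, 250 before and 50 after each listed start, were searched on both strands for the ARE core TGACNNNGC and for TGACTCA, the letters of an AP-1 site. The ARE core lay in 4071 of 32851 windows (12.4%), and TGACTCA in 1709 of them (5.20%). Neither motif was found in the 2 overlapping windows of Gstm1. The 1 window of Aox1 held TGACTCA, with its first base at position −220 from the start, and no ARE core. Both windows of Abcc4, which has 2 distant starts in the table, held the ARE core. In window 1 the core lay on the opposite strand, so that it reads GCGGGGTCA, from position −25, and in window 2 it read TGACTCTGC from position −23. The core with an A after it, present in 3.04% of windows, was in none of the 5 windows. These matches are letters in a window and not measured binding. Bases outside the windows were not searched, so a window without the core does not mean that the gene lacks an ARE. The lines below give 250 bases before the start of window 1 of each gene and the 29 bases around the match in window 2 of Abcc4, 5′ to 3′ on the gene's strand, with the matches in capitals. The positions are chr3:108017974-108018223 (minus strand), chr1:58029719-58029968 (plus strand), chr14:118706220-118706469 (minus strand) and chr14:118676936-118676964 (minus strand), in that order.
Gstm1: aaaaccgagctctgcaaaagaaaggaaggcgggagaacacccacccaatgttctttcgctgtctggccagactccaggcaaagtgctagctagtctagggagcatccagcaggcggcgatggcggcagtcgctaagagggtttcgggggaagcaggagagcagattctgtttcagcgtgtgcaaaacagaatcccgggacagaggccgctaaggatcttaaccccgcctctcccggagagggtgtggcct
Aox1: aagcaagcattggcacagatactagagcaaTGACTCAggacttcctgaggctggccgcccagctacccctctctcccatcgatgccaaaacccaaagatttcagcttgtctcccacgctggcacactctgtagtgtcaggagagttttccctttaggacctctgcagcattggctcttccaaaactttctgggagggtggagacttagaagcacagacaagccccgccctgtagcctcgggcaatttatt
Abcc4 window 1: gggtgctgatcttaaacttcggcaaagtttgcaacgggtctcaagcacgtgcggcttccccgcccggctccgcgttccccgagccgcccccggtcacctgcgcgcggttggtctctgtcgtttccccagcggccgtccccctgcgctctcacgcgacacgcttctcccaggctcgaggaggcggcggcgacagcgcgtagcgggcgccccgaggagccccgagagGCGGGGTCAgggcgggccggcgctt
Abcc4 window 2: aataatctcgTGACTCTGCcgtggtggat

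The targeted gene, Nfe2l2, which encodes Nrf2, is given first. Its probe was named from the list of changed mRNAs, so a difference along the labels was fixed by that choice and is no independent check of them. After quantile normalization between arrays its probe gave log2 signals of 12.40, 11.93 and 12.28 in Nrf2 (+/+) replicates 1 to 3 and 7.95, 7.82 and 8.02 in Nrf2 (−/−) replicates 1 to 3. The log2 difference was −4.27 (limma standard error 0.20), and the genotypes did not overlap. The arrays had median background-subtracted signals of 86.0 to 107 in Nrf2 (+/+) and 136 to 181 in Nrf2 (−/−), in arbitrary units, and 65.5% to 75.7% of probes were well above background. The Nrf2 (−/−) arrays were therefore all brighter before normalization. Over the 43528 tested probes, which stood well above background on 3 or more of the 6 arrays, the median log2 difference between genotypes was 0.62 as extracted and −0.01 after quantiles. Whether the general brightness was a property of the RNA or of the measurement was not tested.

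Gstm1 had log2 signals of 12.87, 12.74 and 13.01 in Nrf2 (+/+) replicates 1, 2 and 3 and of 11.75, 11.40 and 11.76 in Nrf2 (−/−) replicates 1, 2 and 3. Every Nrf2 (−/−) array lay below every Nrf2 (+/+) array, with 0.97 between the closest arrays. The means were 12.87 ± 0.14 and 11.64 ± 0.20 (SD, n = 3 each), so the Gstm1 signal was 2.35-fold lower in Nrf2 (−/−) mice, a log2 difference of −1.23 (limma standard error 0.20). Mu-class transferases are close relatives, and whether this probe also binds RNA of another Gstm gene was not tested, as its sequence was not used here.

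Aox1 had log2 signals of 9.55, 9.31 and 9.73 in Nrf2 (+/+) replicates 1, 2 and 3 and of 7.95, 8.35 and 8.48 in Nrf2 (−/−) replicates 1, 2 and 3. The genotypes again did not overlap, and 0.83 separated the closest arrays. The means were 9.53 ± 0.21 and 8.26 ± 0.28 (SD, n = 3 each), which put Aox1 2.41-fold lower in Nrf2 (−/−) mice, a log2 difference of −1.27 (limma standard error 0.22). Nrf2 (−/−) replicate 1 was the lowest array for Aox1, while replicate 2 was the lowest of its genotype for Gstm1.

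Abcc4 had log2 signals of 5.43, 5.44 and 5.79 in Nrf2 (+/+) replicates 1, 2 and 3 and of 5.23, 4.65 and 4.99 in Nrf2 (−/−) replicates 1, 2 and 3. The genotypes did not overlap after normalization, but only 0.20 lay between the closest arrays. The means were 5.55 ± 0.21 and 4.96 ± 0.29 (SD, n = 3 each), a 1.51-fold lower signal in Nrf2 (−/−) mice and a log2 difference of −0.60 (limma standard error 0.23). The fold threshold that selected the mRNA list was 1.5, or 0.58 on the log2 scale, so Abcc4 was just inside it.

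**Figure D1:**
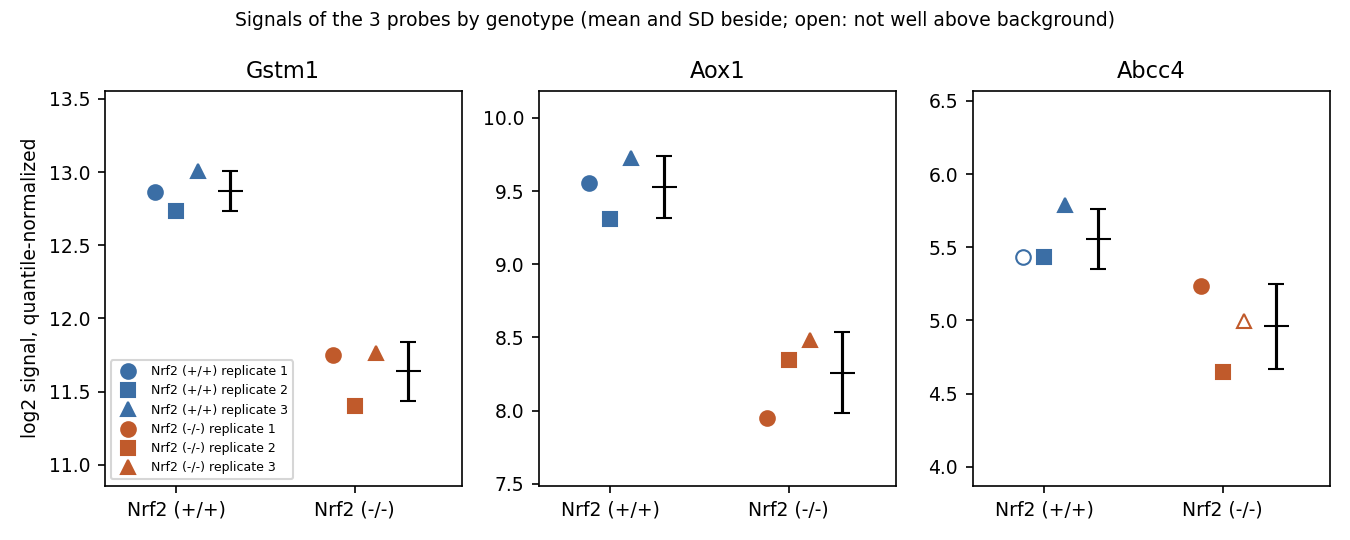
Quantile-normalized log2 signal of the Gstm1, Aox1 and Abcc4 probes on each array (y axis, panels of equal span), by genotype (x axis), with the mean and SD of 3 mice beside the points. Gstm1 and Aox1 lie 0.97 and 0.83 apart between the closest arrays of the genotypes, Abcc4 only 0.20, and open symbols mark the 2 Abcc4 spots that were not well above background.

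Among all 43528 tested probes, 2694 (6.19%) were likewise lower in Nrf2 (−/−) without overlap, and 1865 (4.28%) were lower by more than 1.5-fold. The methods' thresholds for mRNAs were a fold change above 1.5 at an unadjusted p under 0.05. Here they were applied to every tested probe, lncRNA probes too, for which the methods set a higher fold. With the p from limma, 1156 probes passed in the lower direction (2.66%) and 544 in the higher. With the methods' equal-variance test, 775 passed in the lower direction and 286 in the higher. All 3 probes were among the 1156, as their choice fixed, and nothing is read from that count. After Benjamini-Hochberg adjustment across these 43528 probes, limma called 21 probes in either direction (0.0482%), and none of the 3 probes was among these 21, while 2196 probes (5.05%) had an unadjusted p under 0.05. That count of 21 is unsteady, at 568 with slide as a block, 195 without Nrf2 (−/−) replicate 2 and 0 with a replicate block. Each replicate 2 was alone on its slide, so the slide block rests on the arrays of replicates 1 and 3. It leaves little to estimate the spread from. The other counts moved too. Without Nrf2 (+/+) replicate 2, 8841 probes were lower without overlap, and 2011 lower and 2371 higher probes passed the thresholds for mRNAs in limma. Leaving out an array cannot lower a count without overlap, so 8841 is not like for like with 2694. The methods' equal-variance test called 0 probes after the same adjustment and 2535 at an unadjusted p under 0.05.

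The signals before normalization separated Abcc4 from the other two genes. As extracted, the Gstm1 signal was 7202, 5319 and 6533 in Nrf2 (+/+) replicates 1 to 3 and 4486, 3262 and 3835 in Nrf2 (−/−) replicates 1 to 3. The Aox1 signal was 681, 500 and 636 in Nrf2 (+/+) replicates 1 to 3 and 354, 417 and 391 in Nrf2 (−/−) replicates 1 to 3. Both genes were thus lower on every Nrf2 (−/−) array than on any Nrf2 (+/+) array with no normalization between arrays, as were 177 of the tested probes (0.407%). Their unnormalized log2 differences were −0.72 for Gstm1 and −0.64 for Aox1, against the median of 0.62 over all tested probes.

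The Abcc4 signal as extracted was 36.0, 36.2 and 36.0 in Nrf2 (+/+) replicates 1 to 3 and 55.5, 38.9 and 33.1 in Nrf2 (−/−) replicates 1 to 3. The Nrf2 (+/+) arrays were almost equal, and the Nrf2 (−/−) arrays lay on both sides of them. The unnormalized log2 difference was 0.20, with the higher mean in Nrf2 (−/−) mice. Quantile normalization raised the Abcc4 log2 signal by 0.26, 0.26 and 0.62 on Nrf2 (+/+) arrays 1 to 3 and moved it by −0.56, −0.63 and −0.05 on Nrf2 (−/−) arrays 1 to 3. Abcc4 was therefore lower in Nrf2 (−/−) mice relative to the general brightness of the arrays, but not in its extracted signal. Its direction rests on the normalization, and the directions of Gstm1 and Aox1 do not.

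**Figure D2:**
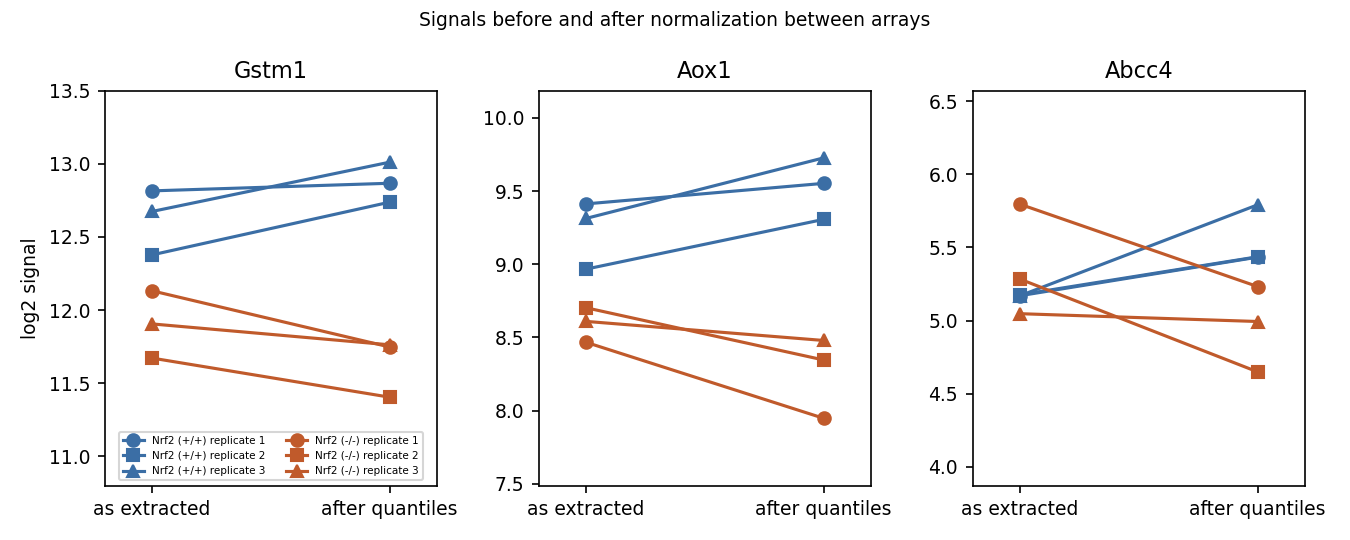
Log2 signal of each probe (y axis, panels of equal span) as extracted and after quantile normalization (x axis), with 1 line per array, colored by genotype. The genotypes stay apart on both sides for Gstm1 and Aox1, and for Abcc4 they overlap as extracted and separate only after normalization.

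Detection differed in the same way. Gstm1 and Aox1 were well above background on all 6 arrays. Abcc4 was well above background on 4 of 6 arrays, namely 2 of 3 in each genotype, and failed the flag on Nrf2 (+/+) replicate 1 and Nrf2 (−/−) replicate 3. Each array also held 300 negative-control spots of 15 names, whose median signal ran from 4.61 to 7.28 over the 6 arrays. Between 40 and 42 of these 300 spots were at or above the Abcc4 signal of their array, and on every array 2 of the 15 names had a median at or above it. The lowest signal of any probe well above background was 22.7 to 34.8. The Abcc4 signal was close above it on Nrf2 (+/+) replicate 1 (36.0 against 34.8) and Nrf2 (−/−) replicate 3 (33.1 against 31.1), the arrays on which it failed the flag, and further above it on the other 4 (36.2 against 22.7 on Nrf2 (+/+) replicate 2, for example). The error that the extraction software gives for a spot was 16.0% to 22.8% of the signal for Abcc4 and between 10.0% and 10.2% for Gstm1 and Aox1. The Abcc4 values are therefore those of a dim probe near the limit of detection in both genotypes.

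**Figure D3:**
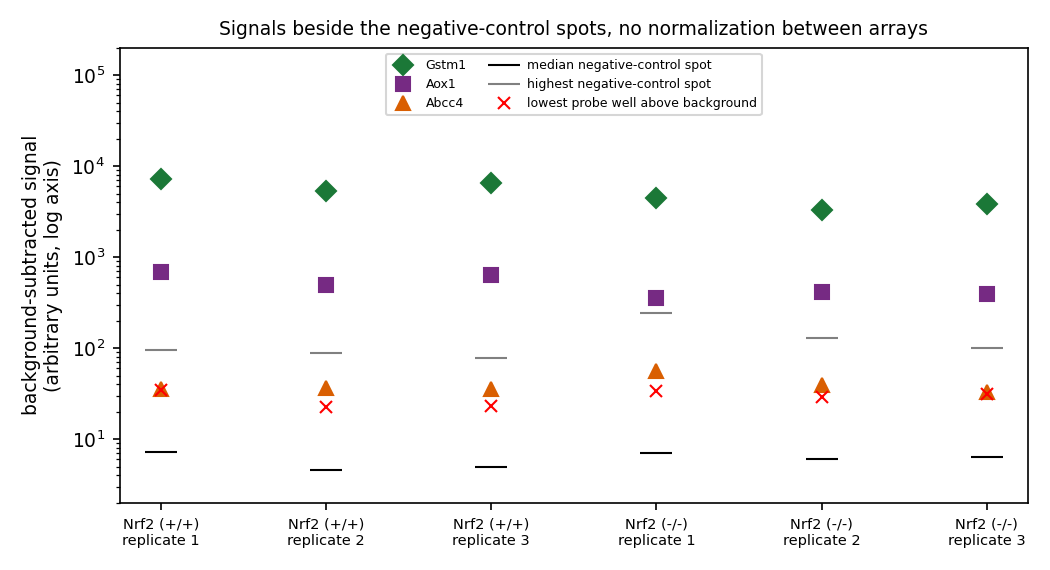
Background-subtracted signal as extracted (y axis, log scale, arbitrary units) of the 3 probes on each array (x axis), beside the median and highest of the 300 negative-control spots and the lowest signal of a probe well above background. Gstm1 and Aox1 lie above the highest negative-control spot on all 6 arrays, and Abcc4 lies below it on all 6.

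Some arrays share a scan time, taken here as a shared slide. Nrf2 (+/+) and Nrf2 (−/−) replicates 1 form one such pair and both replicates 3 another, so the genotypes can be set side by side within a slide. On the slide of replicates 1 the Nrf2 (−/−) array differed from the Nrf2 (+/+) array by −1.12 for Gstm1, −1.61 for Aox1 and −0.20 for Abcc4 on the normalized log2 scale. On the slide of replicates 3 the differences were −1.25, −1.25 and −0.80. Gstm1 was the steadiest of the 3 genes between the slides, and the Abcc4 difference was the least alike. As extracted, Abcc4 was higher in Nrf2 (−/−) by 0.62 on the slide of replicates 1 and differed by −0.12 on that of replicates 3. Gstm1 differed by −0.68 and −0.77 and Aox1 by −0.95 and −0.70 on the same slides as extracted.

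Changes of processing left Gstm1 and Aox1 lower in Nrf2 (−/−) by more than 1.5-fold in each of the 12 alternatives that could move their values, with log2 differences from −1.32 to −0.72 for Gstm1 and from −1.43 to −0.64 for Aox1. Filters on flags and the replicate block cannot move a single probe's value and are not counted. The value nearest to 0 came without normalization for both. Abcc4 was lower in 11 of the 12 and higher in 1, with differences from −0.73 to 0.20, and passed 1.5-fold in 5 of 12. Leaving out 1 array at a time, the Abcc4 difference ran from −0.73 without Nrf2 (−/−) replicate 1 to −0.44 without Nrf2 (−/−) replicate 2. Abcc4 also fell short of 1.5-fold without Nrf2 (+/+) replicate 3, after a shift to the 75th percentile, after normexp background correction, and with slide or scan session as a block.

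**Figure D4:**
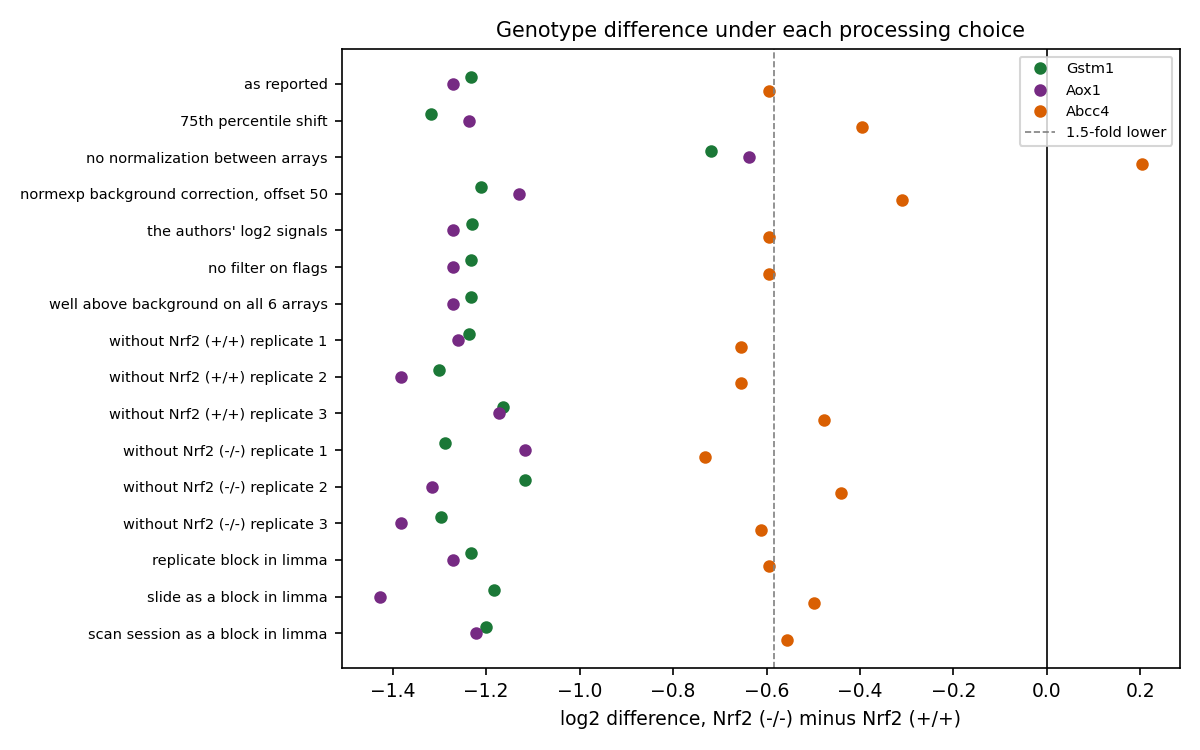
Log2 difference, Nrf2 (−/−) minus Nrf2 (+/+), of each probe (x axis) under each processing choice (y axis), with 0 as a solid line and 1.5-fold lower as a dashed line. All Gstm1 and Aox1 points lie past the dashed line, and Abcc4 lies on both sides of it, with 1 point above 0.

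A second probe was listed under the symbol Aox1, on the same strand of chromosome 1, among the lncRNAs. This probe, ASMM10P015584, had log2 signals of 9.79, 9.44 and 9.91 in Nrf2 (+/+) replicates 1 to 3 and of 7.30, 7.94 and 8.10 in Nrf2 (−/−) replicates 1 to 3. It was well above background on all 6 arrays and its genotypes did not overlap. The means were 9.71 ± 0.25 and 7.78 ± 0.43 (SD, n = 3 each), a 3.82-fold lower signal in Nrf2 (−/−) mice and a log2 difference of −1.93 (limma standard error 0.27). As extracted the difference was −1.30. This probe too comes from a list chosen by the genotype difference, and the arrays hold the same RNA for both probes, so it is no independent sample. The order of the mice within a genotype was not part of the choice, although the spread within a genotype was, through the p of the list. The deviations from the genotype means of both Aox1 probes correlated with r = 0.99 over 6 arrays, which is given as a description. Both probes put Nrf2 (+/+) replicate 2 and Nrf2 (−/−) replicate 1 lowest in their genotype. Replicate 3 was highest in each genotype after quantiles, while as extracted Nrf2 (+/+) replicate 1 and Nrf2 (−/−) replicate 2 were highest for both probes.

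**Figure D5:**
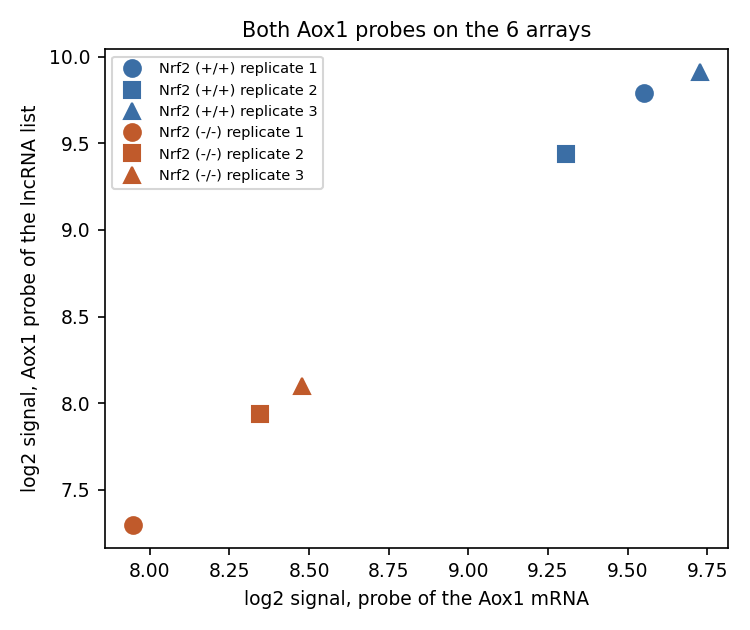
Quantile-normalized log2 signal of the Aox1 mRNA probe (x axis) against the Aox1 probe of the lncRNA list (y axis), with 1 point per array, colored by genotype. The 6 arrays stand in the same order on both axes.

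Within a genotype, how far the 3 genes varied together depended on the arrays used. The deviations of Gstm1 and Aox1 from their genotype means had r = 0.18, those of Gstm1 and Abcc4 r = 0.89, and those of Aox1 and Abcc4 r = −0.14, each over 6 arrays that share their normalization. Nrf2 (−/−) replicate 1 was above its genotype mean by 0.11 for Gstm1 and 0.27 for Abcc4 and stood at −0.31 for Aox1. Without Nrf2 (−/−) replicate 1 the same correlations were 0.81, 0.92 and 0.79, and without Nrf2 (−/−) replicate 2 that of Gstm1 and Aox1 was 0.66. In Nrf2 (+/+) mice, replicate 3 was highest for all 3 genes after quantiles, at 0.14, 0.20 and 0.24 above the genotype mean, but for none of them as extracted. With a shift to the 75th percentile in place of quantiles the correlation of Gstm1 and Abcc4 was 0.07, so this value depends on the normalization too.

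The probes most like each gene were sought among the probes that the study's lists name, by Pearson r over the 6 arrays. All of these were listed because they differ between the genotypes, which raises every such r, so the r of the deviations from the genotype means is given second. The probes shown have the highest r on these same 6 arrays, so the choice raises the second r too. Both r are a description, and no shared variation within a genotype is read from them. For Gstm1 they were a transcript of the lncRNA list under Gm14040 (0.998 and 0.964), Ly6c1 (0.997 and 0.987) and a transcript of the lncRNA list under Smim8 (0.996 and 0.976). Their log2 differences were −1.23, −0.61 and −1.24. Ly6c1 is an endothelium marker, and the part of endothelial cells in the Gstm1 signal was not tested. For Aox1 they were a transcript of the lncRNA list under Plin4 (0.999 and 0.997), the second Aox1 probe (0.999 and 0.986) and Irgm2 (0.996 and 0.973), an interferon-inducible GTPase. The transcript under Plin4 had a log2 difference of −2.20 and Irgm2 of −0.87. For Abcc4 they were Ppm1h (0.987 and 0.961), Slc22a7 (0.986 and 0.988) and Vmn1r32 (0.984 and 0.949), with log2 differences of −0.70, −0.64 and −1.06. Slc22a7 is an organic anion carrier, Ppm1h a protein phosphatase and Vmn1r32 a vomeronasal receptor.

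Other genes of the Nrf2 pathway could not be counted, because the probes used here carry a gene name only where the study listed them as changed. The lists name 690 of the 60915 probes. Of 54 Nrf2 targets and partners, Gstm1, Aox1 and Abcc4 were the 3 joined to a probe, and the other members, Nqo1, Hmox1, Gclc and Keap1 among them, were not analysed here. Among 6 molybdenum enzymes, Xdh, the xanthine dehydrogenase of purine breakdown, was also joined. It had means of 11.24 and 10.56 in Nrf2 (+/+) and Nrf2 (−/−) mice, a log2 difference of −0.67, and −0.11 as extracted. Of 7 carriers and channels of the related list, Slc22a7 and the nucleoside carrier Slc29a1 were joined, with −0.64 and −0.71 after normalization and 0.02 and −0.01 as extracted. As for Abcc4, the difference of both carriers past 1.5-fold appeared only with normalization.

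Of 15 further enzymes that oxidize or reduce drugs, steroids and aldehydes or split esters, 6 were joined, 2 with lower and 4 with higher signals in Nrf2 (−/−) mice, where 303 of the 412 probes of the mRNA list (73.5%) were lower. Akr1d1, a steroid reductase, had means of 7.32 and 4.38, a log2 difference of −2.94, and −2.22 as extracted. It was well above background on 3 of 3 Nrf2 (+/+) and 2 of 3 Nrf2 (−/−) arrays, so its Nrf2 (−/−) mean lies near the limit of detection. The lowest log2 signals well above background on Nrf2 (−/−) arrays 1 to 3 were 4.49, 4.16 and 4.91. No exact size is therefore read from the Akr1d1 difference. Cyp3a25, a cytochrome P450, differed by −1.57, and by −0.88 as extracted. Adh1, an alcohol dehydrogenase, was well above background on all 3 Nrf2 (−/−) arrays and on 0 of 3 Nrf2 (+/+) arrays. Only a bound can therefore be given. Measured against the lowest signal well above background on each Nrf2 (+/+) array, Adh1 was at least 1.22-fold higher in the knockout. A probe can fail the flag above that lowest signal, as Abcc4 did, so this bound is approximate. Ces5a, a carboxylesterase, differed by 0.87, and by 1.54 as extracted. Aldh7a1, an aldehyde dehydrogenase, differed by 0.65, and by 1.36 as extracted. Cyp3a41a differed by 0.63, and by 1.41 as extracted, with the flag passed on 2 of 3 Nrf2 (+/+) and 3 of 3 Nrf2 (−/−) arrays. These genes too were joined because they were listed as changed, and no direction of the enzymes as a group is read from them.

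In bulk tissue, fewer cells of a type and less RNA per cell cannot be told apart. Markers of other cells were joined under the same limit, so their counts are of probes already listed as changed. Of the 690 listed probes, 533 (77.2%) were lower in Nrf2 (−/−), and nothing about a cell type is read from the counts below. For endothelium, 4 of 7 markers were joined and all 8 of their probes were lower in Nrf2 (−/−), among them Ly6a (−0.79 to −0.73 over 4 probes), Ly6c1 (−0.61 and −0.89) and Mfsd2a (−1.13). As extracted, the differences were −0.19 to −0.14 for Ly6a, −0.18 and −0.19 for Ly6c1 and −0.52 for Mfsd2a. For perivascular macrophages, 3 of 3 were joined and lower, with −1.47 for Cd163, −1.39 for Lyve1 and −0.79 for Mrc1, and −0.63, −0.68 and −0.08 as extracted. Cd163 was well above background on 3 of 3 Nrf2 (+/+) and 1 of 3 Nrf2 (−/−) arrays, so its Nrf2 (−/−) mean lies near the limit of detection. The lowest log2 signals well above background on Nrf2 (−/−) arrays 1 to 3 were 4.49, 4.16 and 4.91. The Cd163 mean there was 4.28, so no exact size is read from its difference. For pericytes and leptomeninges, 2 of 5 were joined, both from the lncRNA list, with −1.10 for Ptgds and −1.25 for Slc6a13, and −0.48 and −0.49 as extracted. Of the 6 astrocyte markers, Gjb6 differed by −0.78 and Sox9 by 0.73, and by −0.19 and 1.32 as extracted. Of the 6 markers of choroid plexus and ependyma, Enpp2 differed by −2.06, Sspo by 0.85 and Tmem212 by 1.53, and by −1.49, 1.49 and 2.14 as extracted. None of the 4 neuron, 4 oligodendrocyte and 4 microglia markers was joined, so the tissue label was not checked against them, and no list could be summed. The part of these cells in the signals of Gstm1, Aox1 and Abcc4 was not tested.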

How the data were processed

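RNA from the hippocampus of 3 mice per genotype was analysed. The authors deposited spot intensities from Agilent Feature Extraction 11.0.1.1 (spatial detrend background, no normalization between arrays) and quantile-normalized log2 signals of 60902 probes. Here 15 negative-control names were removed, outlier spots by the software's flags (16 to 91 an array) were dropped, and the background-subtracted log2 signals of a probe's spots were averaged, then quantile-normalized. They differed from the authors' log2 signals by a median of 0.000974. The 43528 probes that exceeded background on 3 or more of the 6 arrays were fitted with limma 3.58.1 (R 4.3.3), without pairs, and p-values were Benjamini-Hochberg adjusted. The script was tested on simulated data. The number of arrays limits the precision.

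The study's lists print no probe identifiers. A list entry was joined to the probe whose fold change and p, computed from the authors' log2 signals, matched the printed values within a relative tolerance of 0.0001. This gave 715 of 715 entries 1 probe each, 690 different probes in all. The lists' fold changes and p-values were used for nothing else.

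The genes named are the 3 genes, Nfe2l2, the second Aox1 probe, the 3 named probes most correlated with each gene, and every member of the related lists joined to a probe. These genes and lists were chosen with earlier results of these data known. The array design follows mm9, and the promoters come from GRCm38.p6. Alternatives were a 75th percentile shift, no normalization, normexp (offset 50) on median spot signals, the authors' log2 signals, other filters on flags, the methods' equal-variance test, Welch's test, replicate, slide or scan session as a block, each array left out, and other motif letters. Python 3.11.15 (numpy 2.4.6, pandas 2.3.3, scipy 1.17.1, matplotlib 3.10.9) was used for the rest.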

Additional observations from a re-analysis of the deposited data

How the results depend on the processing

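Without normalization the log2 differences were −0.72 for Gstm1, −0.64 for Aox1, −1.30 for the second Aox1 probe and, with the opposite sign, 0.20 for Abcc4. The counts were then 225 lower and 18399 higher past the methods' thresholds for mRNAs, applied to all tested probes. In limma 52 probes (38 of them higher) had an adjusted p under 0.05, and 177 were lower without overlap. The r of the deviations was 0.47 for Gstm1 with Abcc4 and −0.35 for Aox1 with Abcc4. With normexp the Abcc4 difference was −0.31, 643 probes were lower past the thresholds, and both r were 0.36 and −0.49. With a 75th percentile shift they were 0.072 and −0.57, and 976 lower stood beside 1003 higher probes past the thresholds, against 1156 and 544 with quantiles. The adjusted count was 9 with no filter, 9 with a filter on all 6 arrays (which left Abcc4 out), 0 with the methods' test (2535 unadjusted), 0 with Welch's test (1890 unadjusted, 635 lower past the thresholds) and 568 with slide as a block (2607 lower past the thresholds). The slide block rests on the arrays of replicates 1 and 3 alone. The replicate numbers were not taken as pairs of mice, although both replicates 1 and both replicates 3 shared a scan time. Over all tested probes, the deviations from the genotype means had r = −0.15, 0.43 and 0.81 between same-numbered arrays of replicates 1 to 3. By this r, the closest array of the other genotype had the same number for 4 of 6 arrays. With a replicate block in limma 0 probes had an adjusted p under 0.05, 7090 an unadjusted one, and 1386 were lower past the thresholds. The ARE core with an A after it lay in 3.04% of windows against 12.4% for the core alone.

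With each array left out, the Gstm1 difference ran from −1.30 to −1.12, Aox1 from −1.38 to −1.12, Abcc4 from −0.73 to −0.44 and the second Aox1 probe from −2.09 to −1.69. The lower count past the thresholds ran from 777 to 2011 (beside 2371 higher at 2011), the count without overlap from 3113 to 8841 (both highest without Nrf2 (+/+) replicate 2) and the adjusted count from 8 to 195 (highest without Nrf2 (−/−) replicate 2). r ran from −0.12 to 0.81 for Gstm1 with Aox1, from 0.73 to 0.95 for Gstm1 with Abcc4 and from −0.59 to 0.79 for Aox1 with Abcc4, and without Nrf2 (−/−) replicate 1 all 3 were high (0.81, 0.92 and 0.79). Leaving out an array cannot lower the count without overlap. Beyond that, the cause of these changes was not tested. Signal over background limits the Abcc4 probe, and 3 mice per genotype limit all values.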

Other observations

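The promoters of the wider Nrf2 list can be described apart from the arrays. Of its 54 genes, 48 were in the RefSeq table, and 16 of these 48 (33.3%) held the ARE core TGACNNNGC in at least 1 window, against 14.0% of all 27025 genes in the table. For the core with an A after it the counts were 4 of 48 genes (8.33%) against 3.45%, and for TGACTCA 8 of 48 (16.7%) against 5.95%. Abcc4 was among the 16 genes, and Gstm1 and Aox1 were not, within the windows searched. Genes with several starts have more windows, and no test was made of these shares.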
